A study of Mus musculus with 20 samples.

Results

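RNA of mouse CD8+ T cells that had received the IL-2 partial agonist IL-2-REH for 4 h was compared with RNA of unstimulated CD8+ T cells. The comparison rests on 2 of the 20 samples of the series, 1 library per group, chosen by their labels alone. The cells came from lymphoid tissue (spleen and lymph node) and were enriched with a CD8+ isolation kit. The methods of the study name C57BL/6J as the strain, the sample labels C57BL/6N. The stimulated cells carried 200 nM IL-2-REH, a human IL-2 with mutations that weaken its contact with the common gamma chain (γc), fused to mouse serum albumin. The unstimulated cells received no cytokine and were taken at 0 h, so the effect of the cytokine and that of 4 h in culture cannot be told apart. CD8+ T cells with IL-2-REH for 1.5 h and with 200 nM IL-2 for 1.5 h or 4 h, also 1 library each, and the regulatory T cells (Tregs) of the series, sorted by GFP from B6-Foxp3EGFP mice with 3 libraries per group, were used only for reference.

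IL-2 is bound first by IL-2Rβ, helped by IL-2Rα where a cell has it, and signals once γc joins the complex. The kinases JAK1 and JAK3 on the receptor tails then phosphorylate STAT5, which enters the nucleus and raises the transcription of targets such as Cish, Socs1 and Bcl2. In cytotoxic T cells, IL-2 drives growth, survival and the production of granzymes. T cells that are handled or restimulated also carry short-lived transcripts of immediate early genes, among them the AP-1 factors Fos and Jun, which are made within minutes and degraded quickly.

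A gene's level is given as RPKM, the exon reads scaled to exon length and to all mapped reads as the authors deposited it, and a difference as the log2 ratio of RPKM + 1. The added 1 understates the change of genes with low RPKM. Of 10021 genes whose RPKM averaged 1 or more across the 5 CD8+ libraries, 55 (0.549%) had a log2 ratio below -2 and 5 (0.0499%) had one above 2. With reads scaled by edgeR's TMM method in place of RPKM, the split was 69 lower and 18 higher. Such scaled reads are not divided by exon length, so the weight of the added 1 changed along with the scaling. The TMM factors were close (1.0177 for the unstimulated library, 1.0235 with IL-2-REH at 4 h). The different split can therefore not be assigned to the scaling method alone. At a log2 ratio of 1, which is used below for lists of genes, 434 genes (4.33%) were lower and 178 (1.78%) were higher, and the median over all 10021 genes was -0.02. No test was possible with 1 library per group. In Tregs, 2 libraries of the same group differed past a log2 ratio of 2 in 9 to 157 of the same genes (median 39 over 15 pairs). The 60 genes counted here lie within that range and above its median. The highest counts (157 and 138) came from pairs with unstimulated Treg replicate 1. The next (115 and 104) came from pairs with replicate 3 of IL-2 at 4 h. This yardstick comes from another cell type, and the spread between CD8+ cultures was not measured.

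The spread can also be read gene by gene. The SD of log2(RPKM + 1) within Treg groups, pooled over 5 groups, had a median of 0.31 over all genes and 0.56 over the 55 lower genes. For 50 of the 55 lower genes and 4 of the 5 higher ones, the difference exceeded 2 times the spread of a difference between 2 Treg libraries of a group. These genes were picked for a ratio past 2, so most were bound to pass this mark. The share of all genes that pass it was not computed, and the count does not tell the changes from noise. The exceptions were C1qc, Vcam1, C1qa, Maff and Nr4a1 among the lower genes and Adk among the higher ones. Reads on genes numbered 40598133 in the unstimulated library and 44977546 with IL-2-REH at 4 h. The counting intervals given below are exact binomial 95% intervals of the log2 ratio of reads per mapped read, without an added constant, and they cover counting error only. Next to the threshold, Nr4a1 (-2.03), Mthfd1 (-2.01) and Isg15 (-2.005) lay just inside, and Snora31, Itgb2 and Dusp2 (each -1.99) just outside.

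**Figure D1:**
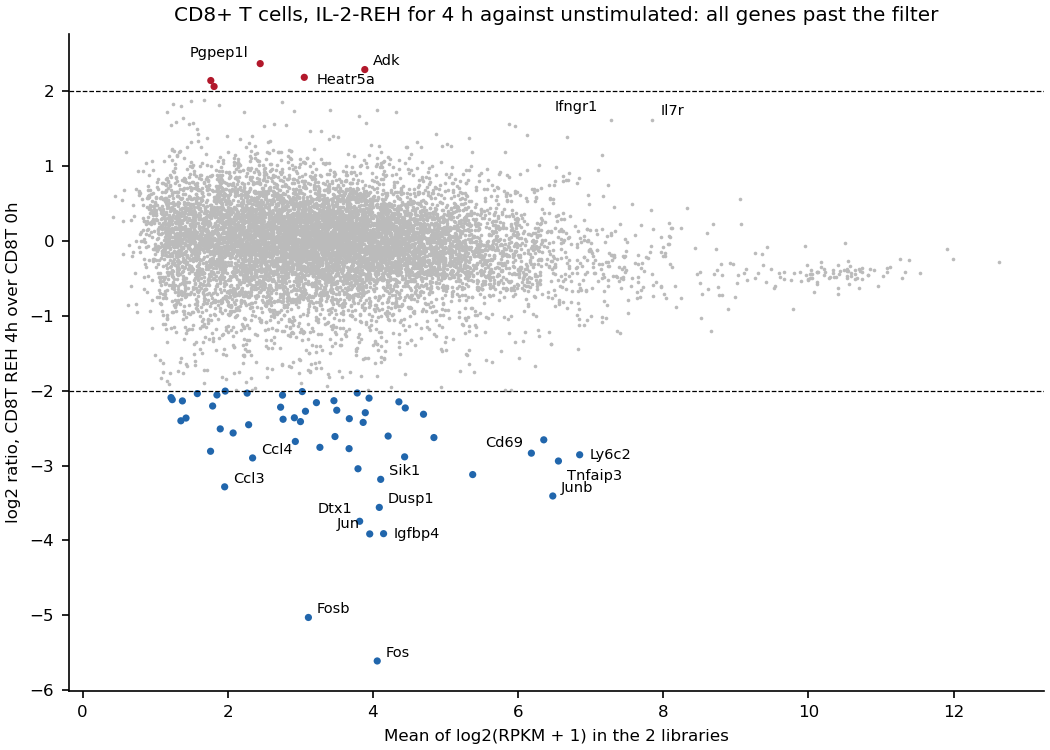
Each of the 10021 points is a gene, with its mean log2(RPKM + 1) in the CD8T 0h and CD8T REH 4h libraries on the x axis and its log2 ratio between them on the y axis. The 55 genes below the lower dashed line reach down to -5.61 (Fos), while the 5 genes above the upper line end at 2.37 (Pgpep1l).

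Transcripts of AP-1, the dimeric transcription factor made of FOS and JUN family proteins, had the lowest ratios in the comparison. Fos had 116 RPKM in the unstimulated library, 3.20 with IL-2-REH at 1.5 h, 1.38 with IL-2-REH at 4 h and 1.44 with IL-2 at 4 h. Its log2 ratio at 4 h was -5.61, and its reads went from 14870 to 210 (counting interval -6.59 to -6.19). The unstimulated library thus stood far above the libraries with either cytokine. Fosb, a close relative of Fos, had 48.4 RPKM unstimulated and 0.512 with IL-2-REH at 4 h (log2 ratio -5.03), against 0.477 with IL-2. Jun had 59.3 and 2.998 RPKM (log2 ratio -3.91), and Junb 289 and 26.4 RPKM (log2 ratio -3.41). Jun was higher with IL-2 at 4 h, at 7.14 RPKM, than with IL-2-REH (direct log2 ratio -1.03), whereas Junb was at 30.8 RPKM with IL-2 (direct log2 ratio -0.22). Exons of Jun overlap the antisense transcript Junos and those of Junb the gene Prdx2, and since the use of strand in counting is not given in the sources used here, a part of their reads is uncertain. Of 12 measured AP-1 genes past the filter, 7 were below -1 and 0 above 1, with a median log2 ratio of -1.56 (-0.99 with IL-2 at 4 h). Bach2, a repressor that competes for AP-1 sites, had the highest ratio of the list, with 13.6 RPKM unstimulated and 27.6 with IL-2-REH (log2 ratio 0.97).

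The sequences before the start of Fos and Fosb, the genes with the lowest ratios, are shown because Fos is known to be switched on through a cAMP response element (CRE). Of its start-proximal promoter, 70 bases are given at chr12:85473820-85473889 on the plus strand, and of Fosb 23 bases at chr7:19310089-19310111 on the minus strand, which lie before the listed start but inside the annotated gene. Both come from RefSeq on GRCm38.p6, and capitals mark the CRE core TGACG and the TATA box TATAAA, searched on both strands, which do not overlap here.
Fos: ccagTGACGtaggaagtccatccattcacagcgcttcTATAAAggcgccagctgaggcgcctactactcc
Fosb: tgcgggTGACGcaagcgcggggg
In windows of the same design (from 250 bases before the start to 50 after it), 21.0% of 27025 genes held TGACG and 14.2% held TATAAA, taking the first listed window of each gene. Among the 7433 genes past the filter that matched a window, the shares were 35.1% and 6.54%. A match describes the letters and is not a measured site. Of the 55 lower genes, 41 matched a window, of which 15 (36.6%) held TGACG and 9 (22.0%) held TATAAA. The TGACG share was thus near that of the genes past the filter. No test was run on these shares, and genes without a matched window are not covered.

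Other immediate early genes were lower as well. Egr1, a zinc finger factor induced by growth signals, had 23.8 RPKM unstimulated and 4.18 with IL-2-REH at 4 h (log2 ratio -2.26). Sik1, a salt-inducible kinase, went from 51.0 to 4.72 RPKM (-3.18), and Ppp1r15a, which encodes a stress-induced regulatory subunit of protein phosphatase 1, from 121 to 13.1 RPKM (-3.12). Klf4, Csrnp1 and Nr4a1 had log2 ratios of -2.04, -2.29 and -2.03. All 6 genes were below 17 RPKM with IL-2 at 4 h too, and their levels there were 4.69 (Egr1), 3.52 (Sik1), 9.42 (Ppp1r15a), 0.417 (Klf4), 16.8 (Csrnp1) and 4.79 RPKM (Nr4a1). Csrnp1 was the one of these whose IL-2 level was well above its IL-2-REH level, at 16.8 against 5.72 RPKM. Nr4a1, which encodes an orphan nuclear receptor induced by T cell receptor signals, was still at 22.1 RPKM after 1.5 h of IL-2-REH and at 5.82 RPKM after 4 h. Over 19 genes of the EGR, NR4A and KLF list, 8 were below -1, 0 above 1, and the median was -0.85 (-0.89 with IL-2). Over the members with a mean RPKM of 5 or more, the median was -1.65. Its member with the highest ratio, Btg2, had 44.9 RPKM unstimulated and 70.02 with IL-2-REH (0.63).

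Negative regulators that such signals induce were low together with them. Dusp1, a nuclear phosphatase that inactivates MAP kinases, had 57.4 RPKM unstimulated, 6.89 with IL-2-REH at 1.5 h and 3.95 at 4 h (log2 ratio -3.56), and 2.53 with IL-2 at 4 h. Dusp5, another phosphatase of ERK, had 32.3 and 3.87 RPKM (-2.77). Dusp2 (-1.99), Dusp6 (-1.96) and Spry2 (-1.82) were the other members past 1 of the 10 MAPK phosphatases and Sproutys past the filter, whose median was -1.32 with IL-2-REH, against -1.61 with IL-2. With no filter on low RPKM the IL-2-REH median was -0.78. Tnfaip3, which encodes the ubiquitin-editing enzyme A20 that limits NF-κB, had 259.6 RPKM unstimulated, 32.97 with IL-2-REH, against 12.1 with IL-2 at 4 h. Its log2 ratio was -2.94 with IL-2-REH, and the direct ratio of IL-2-REH to IL-2 was 1.37, so here the level with IL-2 was the lower one. The NF-κB list as a whole did not share that direction, with 3 of 17 genes below -1, 1 above 1 and a median of 0.26. Nfkb2, which encodes the p100 precursor, went from 14.3 to 33.4 RPKM (1.17), and Relb, its partner, from 11.9 to 23.6 (0.93). Among 13 regulators of mRNA decay, Zfp36 (-1.62), Zfp36l1 (-1.01), Zfp36l2 (-1.08) and Tob2 (-1.003) were below -1, none was above 1, and the median was 0.41 (-0.48 with IL-2).

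**Figure D2:**
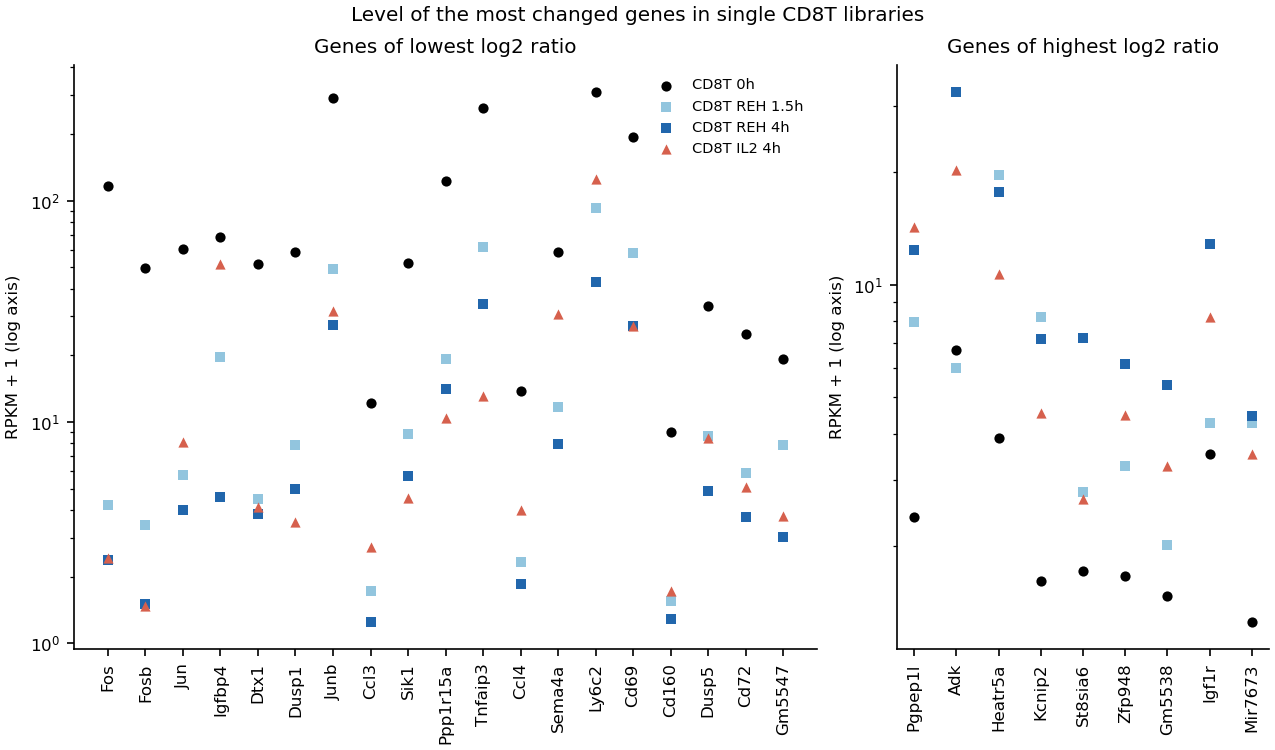
RPKM + 1 on log axes in 4 single CD8+ libraries for 19 of the 20 genes with the lowest log2 ratios (left) and 9 of the 10 with the highest (right). Black points (unstimulated) lie highest for every gene on the left. Igfbp4 and Sema4a differ from Fos and Fosb in that their IL-2 level at 4 h (red triangles) stayed well above their IL-2-REH level (dark blue squares), with 50.5 against 3.57 RPKM for Igfbp4.

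Several of the lowest genes differed between the cytokines at 4 h. Igfbp4, which encodes a secreted protein that binds insulin-like growth factors and is a marker of naive T cells, had 67.7 RPKM unstimulated, 18.6 with IL-2-REH at 1.5 h, 3.57 with IL-2-REH at 4 h and 50.5 with IL-2 at 4 h. Its log2 ratio against unstimulated cells was -3.91 with IL-2-REH, against -0.42 with IL-2, and -3.49 between the cytokines. Igfbp4 also had a wide within-group SD in Tregs (1.10 on the log2 scale). Sema4a, a semaphorin of the cell surface, had 57.8, 6.97 and 29.7 RPKM in the unstimulated, IL-2-REH and IL-2 libraries (log2 ratio -2.88 with IL-2-REH, against -0.94 with IL-2). Ly6c2, a surface protein of memory CD8+ T cells and of monocytes, had 309, 41.8 and 124 RPKM (-2.86 and -1.32). It shares much of its sequence with Ly6c1, which lay at 70.2, 10.5 and 28.9 RPKM (-2.63 with IL-2-REH). Only uniquely mapped reads were counted, so reads that fit both of the 2 genes may be missing. Rgs1, a regulator of G protein signalling, with 32.8, 5.30 and 28.4 RPKM, and Nkg7, a granule membrane protein of killer cells, with 204, 31.6 and 139 RPKM, showed the same order.

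For other genes among the 20 lowest, the levels with IL-2-REH and IL-2 lay close. Dtx1, which encodes the Notch pathway ubiquitin ligase Deltex 1, had 50.6 RPKM unstimulated, 3.50 with IL-2-REH at 1.5 h, 2.85 with IL-2-REH at 4 h and 3.12 with IL-2 at 4 h (log2 ratio -3.74 with IL-2-REH). It stood alone in its list, since 1 of 12 Notch pathway genes was below -1, 0 were above 1, and the median was -0.04. Among the 60 genes past 2, Dtx1 had the widest spread of a difference between 2 Treg libraries of a group (1.65). Cd69, an early activation marker that retains T cells in tissue, had 193 RPKM unstimulated, 26.2 with IL-2-REH, against 26.1 with IL-2 (-2.83 with IL-2-REH). Cd160, a receptor of cytotoxic lymphocytes, had 7.99, 0.283 and 0.73 RPKM (-2.81), and Cd72, a receptor of the C-type lectin family best known from B cells, had 24.1, 2.71 and 4.07 RPKM (-2.76). The unannotated transcript Gm5547 had 18.3, 2.02 and 2.77 RPKM (-2.68). Exons of Sema4a, Cd160, Dusp1, Dusp5, Cd72 and Ppp1r15a overlap another annotated gene, so a part of their reads is uncertain.

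Genes of the cytotoxic effector programme were mostly lower with IL-2-REH. Of 18 past the filter, 8 were below -1 and 0 above 1, with a median of -0.75 (-0.43 with IL-2). Ccl3 and Ccl4, chemokines released by activated CD8+ T cells, had 11.1 and 12.9 RPKM unstimulated and 0.245 and 0.858 with IL-2-REH at 4 h, log2 ratios of -3.28 and -2.90. Their levels with IL-2 at 4 h were 1.72 and 2.997 RPKM. Ccl3 had 540 reads unstimulated and 14 with IL-2-REH (counting interval -6.39 to -4.75). Ifng, the gene of interferon gamma, had 7.89 RPKM unstimulated, 0.905 with IL-2-REH at 1.5 h, 0.561 at 4 h and 1.70 with IL-2 at 4 h (log2 ratio -2.51 with IL-2-REH). The study reports Ifng as raised by IL-2 in CD8+ T cells by qPCR, whereas here its IL-2 level was below the unstimulated one. Gzmb, which encodes granzyme B, had 8.19 RPKM unstimulated, 1.999 with IL-2-REH at 4 h and 31.7 with IL-2 at 4 h, so that the IL-2 library was above and the IL-2-REH library below the unstimulated one (log2 ratios 1.83 and -1.61). Prf1, the gene of the pore-forming perforin, had 22.0, 9.32 and 17.8 RPKM (-1.15 with IL-2-REH), and Xcl1, Gzmm and Nkg7 completed the genes below -1 at -1.82, -1.42 and -2.66. Klrd1, which encodes the NK receptor chain CD94, was the highest of the list at 84.8 RPKM unstimulated and 146 with IL-2-REH (0.78), and had 41.2 RPKM with IL-2 (-1.02).

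Only 5 genes had a log2 ratio above 2, and the fixed lists held none of them. Adk, which encodes adenosine kinase, had 5.69 RPKM unstimulated, 4.99 with IL-2-REH at 1.5 h, 31.8 with IL-2-REH at 4 h and 19.3 with IL-2 at 4 h (log2 ratio 2.29, counting interval 2.36 to 2.60 without the added 1). The ratio of Adk is within 2 spreads of Treg libraries, as its SD there was 0.92. Heatr5a, a HEAT repeat protein, had 2.89, 18.7, 16.7 and 9.71 RPKM in the same order (2.19). Kcnip2, a potassium channel-interacting protein, had 0.618, 7.21, 6.16 and 3.55 RPKM (2.15), and the sialyltransferase gene St8sia6 had 0.716, 1.79, 6.19 and 1.67 RPKM (2.07). Pgpep1l, a pyroglutamyl-peptidase I-like gene at chr7:68235521-68264484, had 1.40, 6.93, 11.4 and 13.2 RPKM (2.37). Its neighbour Igf1r, the receptor of insulin-like growth factor 1 at chr7:67952257-68233668 on the other strand, had 2.54, 3.26, 11.9 and 7.20 RPKM (1.86, short of 2), and the exons of the genes do not overlap in the annotation. Zfp948 (1.88), Gm5538 (1.87) and Mir7673 (1.83) were also just short of 2, and all of them were under 1 RPKM in the unstimulated library. Mir7673 lies in an exon of Klhl15, so its reads cannot be told from those of that gene.

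Il7r had the largest difference in RPKM among the members above 1 of the fixed lists. It encodes the IL-7 receptor α-chain, which naive and memory T cells need for survival. Its level was 130 RPKM unstimulated, 164.1 with IL-2 at 1.5 h, 223 with IL-2-REH at 1.5 h, 403 with IL-2-REH at 4 h and 123 with IL-2 at 4 h. The log2 ratio at 4 h was 1.62 with IL-2-REH (counting interval 1.61 to 1.65) and -0.08 with IL-2, and 1.70 between the cytokines. Ifngr1, which encodes the ligand-binding chain of the interferon gamma receptor, had 87.5, 236, 272 and 237 RPKM in the unstimulated, IL-2-REH at 1.5 h, IL-2-REH at 4 h and IL-2 at 4 h libraries (1.62 at 4 h), so here the cytokines lay close. The quiescence and homing list, to which Il7r and Igfbp4 belong, held 1 gene above 1 and 3 below -1 of 20, with a median of 0.11 (-0.32 with IL-2). Its members below -1 were Igfbp4, Itgb7, an integrin chain of gut homing, at 140.5 RPKM unstimulated and 53.6 with IL-2-REH (-1.37), and Dapl1, a gene of naive CD8+ T cells, at 167.3 and 76.2 RPKM (-1.12). The transcription factor Tcf7 was at 378 and 444 RPKM (0.23) and the homing receptor Ccr7 at 153 and 124 RPKM (-0.30).

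The list of IL-2 and STAT5 targets had the widest gap between the cytokines among the 29 lists plotted. Of 31 targets past the filter, 9 were below -1 with IL-2-REH and 1 above 1, with a median of -0.47. With IL-2 at 4 h against the same unstimulated library, 1 was below -1 and 14 were above 1, with a median of 0.82, beside 3.4% and 1.31% of all genes. In the direct comparison of the 4 h libraries, 31 of the 31 targets were lower with IL-2-REH than with IL-2, with a median log2 ratio of -1.38. Over all 10021 genes, 38.2% were lower and the median was 0.08, and no replicate measures the error of this difference. The list was chosen with earlier results of these data known, and it holds Cdk6, Tnf and Lta, which the study names as raised by IL-2. It also holds Bcl2, Myc, Ifng and Gzmb, which the study reports by qPCR, with Lta, as raised by IL-2 and not by IL-2-REH. The filter also averages over the IL-2 libraries, so a target can pass it through them. The count is therefore not independent support. Cish, a feedback inhibitor of the IL-2 receptor and a direct STAT5 target, had 1.87 RPKM unstimulated, 2.47 with IL-2-REH at 1.5 h, 2.45 with IL-2-REH at 4 h, 30.6 with IL-2 at 1.5 h and 26.1 with IL-2 at 4 h. The IL-2-REH libraries were thus near the unstimulated one at both times (log2 ratio 0.27 at 4 h, counting interval 0.16 to 0.63), and the IL-2 libraries far above. Exons of Cish overlap the opposite-strand transcripts Gm17040 and Gm17041. Lta, which encodes lymphotoxin α, had 3.21, 4.37 and 43.4 RPKM in the unstimulated, IL-2-REH and IL-2 libraries at 4 h (log2 ratios 0.35 and 3.40). Tnf had 2.03, 1.77 and 20.8 RPKM (-0.13 and 2.85). Socs1, another feedback inhibitor of JAK kinases, had 9.25, 9.81 and 42.3 RPKM (0.08 and 2.08).

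A further group of targets was below the unstimulated level with IL-2-REH but above it with IL-2. Bcl2, the survival gene, had 30.4 RPKM unstimulated, 13.4 with IL-2-REH, against 98.5 with IL-2 (log2 ratios -1.13 and 1.66). Myc, the growth regulator, had 39.4, 10.8 and 70.04 RPKM (-1.78 and 0.81), and Ccnd2, which encodes cyclin D2, had 70.03, 29.7 and 132 RPKM (-1.21 and 0.90). Cdk6, a partner of D-type cyclins, had 4.69, 2.47 and 25.2 RPKM (-0.72 and 2.2003). Socs3 had 34.01, 11.3 and 39.8 RPKM (-1.51 and 0.22). The only target above 1 with IL-2-REH was Ikzf4, which encodes the zinc finger factor Eos, at 0.577, 2.63 and 6.82 RPKM (1.20 and 2.31). Il2ra, the gene of IL-2Rα, had 1.58, 3.20 and 6.34 RPKM (0.70 and 1.51). The exons of Bcl2 and Cdk6 overlap opposite-strand transcripts, and a part of their reads is uncertain. The same holds for Ifng, Ptpn6, Jak3, Ccnd2, Ikzf4, Nfkb2, Crem, Heatr5a and St8sia6, whose exons also overlap another annotated gene.

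**Figure D3:**
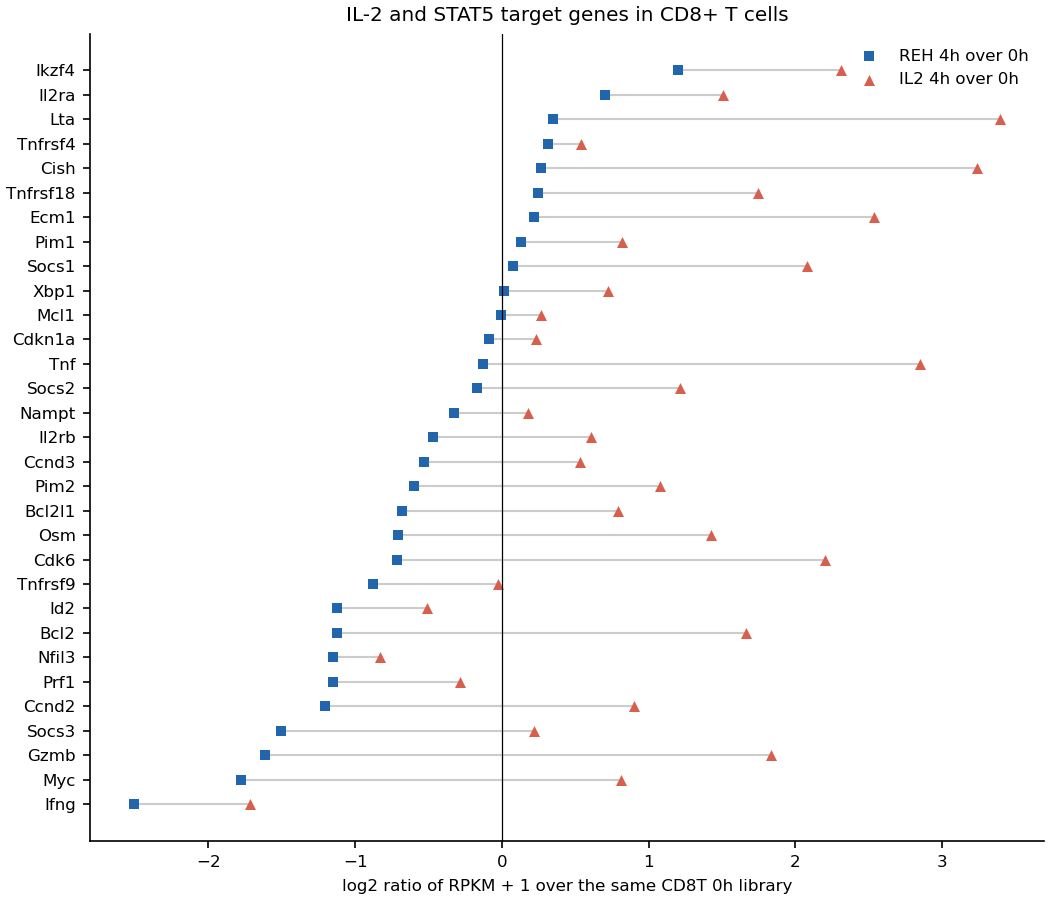
Log2 ratios of RPKM + 1 over the same CD8T 0h library for the 31 IL-2 and STAT5 targets past the filter, with IL-2-REH at 4 h (blue squares) and IL-2 at 4 h (red triangles). For every target the triangle lies to the right of the square, from Ifng at the bottom (-2.51 and -1.72) to Ikzf4 at the top (1.20 and 2.31).

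STAT sites, which have the spacing TTCNNNGAA, are shown for Cish and Lta from the target list and for Il7r and Irgm2 from outside it. Cish and Lta were high with IL-2 alone, Il7r was high with IL-2-REH alone at 4 h, and Irgm2 was high with both. The windows lie at chr9:107296655-107296682 on the plus strand (Cish, across the start), chr17:35205352-35205371 on the minus strand (Lta), chr15:9530002-9530021 on the minus strand (Il7r) and chr11:58214897-58214916 on the plus strand (Irgm2), in RefSeq on GRCm38.p6. Capitals mark the motif, searched on both strands, and the 2 copies in Cish do not overlap.
Cish: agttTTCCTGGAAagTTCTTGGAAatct
Lta: ccctTTCCCAGAAcgcagta
Il7r: agcTTCAGGGAAtaccaaga
Irgm2: gccatTTCCAGGAActgaaa
Of the windows of 27025 genes, 8.47% held this motif, as did 7.22% of the 7433 past the filter. Binding of STAT5 was not measured. The windows shown all hold the motif, so they cannot tell whether it goes with the response. Among genes with a matched window, 6 of 25 IL-2 and STAT5 targets held it, as did 12 of 26 interferon-stimulated genes. Of the genes below -2, 3 of 41 held it, and of those above 2, 0 of 5. These counts were not tested, and genes without a matched window are not covered.

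The receptor and its kinases were examined next, as they set what a cell can receive. Il2rb had 122 RPKM unstimulated, 87.5 with IL-2-REH, against 186 with IL-2 at 4 h, and Il2rg, the gene of γc, had 266, 196 and 207 RPKM. Their log2 ratios with IL-2-REH were -0.47 and -0.44. Of 15 genes of the receptor and JAK-STAT list, 3 were below -1 and 0 above 1, with a median of -0.32 (-0.16 with IL-2). Those below -1 were Ptpn6, which encodes the phosphatase SHP-1 (76.3 to 22.0 RPKM, -1.75), Jak3 (26.9 to 9.16 RPKM, -1.45) and Il15ra (3.60 to 1.06 RPKM, -1.16). Stat5b went from 28.1 to 38.3 RPKM (0.43) and Jak1 from 197 to 263 (0.41). In the SOCS family, 1 of 8 genes was below -1 (Socs3) and 0 were above 1, with a median of 0.14 (0.45 with IL-2).

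Interferon-stimulated genes had 12 of 37 members below -1, 1 above 1 and a median of -0.54 (-0.01 with IL-2). Over the members with a mean RPKM of 5 or more, the median was -0.05. Antiviral genes were among the lowest, with Mx1 at 4.44 and 0.238 RPKM (log2 ratio -2.14), Isg15 at 6.83 and 0.95 (-2.005), Rtp4 at 11.8 and 3.01 (-1.67), Zbp1 at 29.7 and 9.38 (-1.57) and Ifit1 at 5.40 and 1.35 (-1.45) in the unstimulated and IL-2-REH libraries. With IL-2 at 4 h, Zbp1 was at 28.8 RPKM and Rtp4 at 8.92 RPKM, near their unstimulated levels, while Mx1 was at 0.455 RPKM. The single gene above 1 was Irgm2, an immunity-related GTPase, with 8.12 RPKM unstimulated, 19.9 with IL-2-REH at 1.5 h, 29.6 at 4 h and 59.4 with IL-2 at 4 h (1.75 with IL-2-REH). Its exons overlap those of Igtp on the same strand, so reads may be shared between them, and Igtp itself had 47.7, 54.2 and 225.6 RPKM in the unstimulated, IL-2-REH and IL-2 libraries at 4 h. The GTPases Tgtp1 and Tgtp2 had log2 ratios of 0.62 and 0.53 with IL-2-REH, against 1.65 and 1.44 with IL-2. They are near-identical copies, and as only uniquely mapped reads were counted, reads that fit both may be missing. Thus 13 of the 37 genes were above 1 with IL-2, and in the direct comparison 35 of 37 were lower with IL-2-REH (median log2 ratio -0.86), beside the 38.2% of all genes given above.

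Growth genes were lower with IL-2-REH than in unstimulated cells, and nearer the unstimulated level with IL-2. Of 30 ribosome biogenesis genes, 8 were below -1 and 0 above 1 (median -0.81), whereas with IL-2 the median was -0.10 with 0 past 1 in either direction. Rrp12, which exports ribosomal subunits, went from 9.48 to 2.23 RPKM (-1.70), and Gnl3, a nucleolar GTPase, from 28.8 to 9.74 (-1.47). Mybbp1a and Bysl had log2 ratios of -1.44 and -1.38. Of 18 genes of amino acid supply and endoplasmic reticulum stress, 7 were below -1 and 0 above 1 (median -0.65 with IL-2-REH, -0.01 with IL-2). They included Slc7a5, the large neutral amino acid transporter (12.1 to 3.27 RPKM, -1.62), Phgdh, the first enzyme of serine synthesis (29.5 to 9.28 RPKM, -1.57), Shmt2 (-1.32), Hspa5, the chaperone BiP (130.3 to 55.4 RPKM, -1.22), and Mthfd2 (-1.09). Slc7a5 was at 12.8 RPKM with IL-2, close to its unstimulated level.

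Of 19 glycolysis genes, 2 were below -1 (Tpi1 at -1.45 and Eno1 at -1.27), 0 were above 1, and the median was -0.60 (-0.33 with IL-2). Eno1, which encodes enolase 1, had 121 RPKM unstimulated, 49.4 with IL-2-REH, against 145 with IL-2. No gene of the 20 for sterol synthesis passed 1 in either direction (median -0.28), nor any of the 20 for DNA replication and mitosis (median -0.11). Within the MYC network, Myc itself was the 1 gene of 9 below -1, and the median was 0.07. Among 16 G1 cyclins, CDKs and inhibitors, Ccnd2 (-1.21) and Cdk4 (-1.11) were below -1 and 0 were above 1, with the inhibitor Cdkn1b (p27) highest at 31.7 and 60.6 RPKM (0.91). The BCL2 family held 1 of 13 genes on each side, Bcl2 (-1.13) and Bcl2l11, which encodes the pro-apoptotic protein BIM, at 10.5 RPKM unstimulated, 25.1 with IL-2-REH, against 16.5 with IL-2 (1.19).

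**Figure D4:**
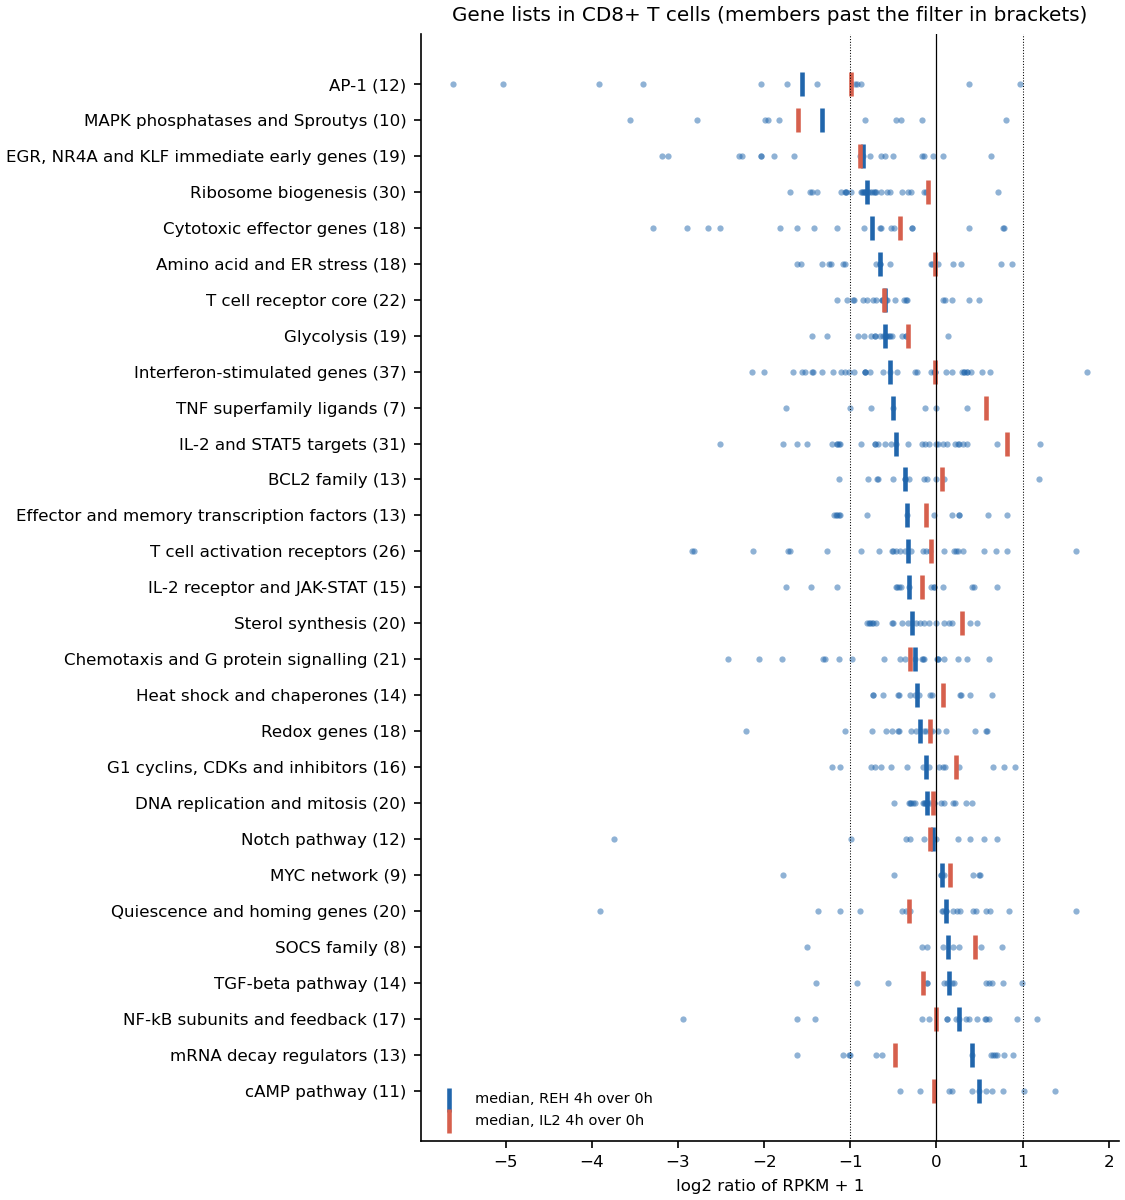
Log2 ratios of RPKM + 1, CD8T REH 4h over CD8T 0h, for the members past the filter of 29 gene lists (blue points, number in brackets), with the list median for IL-2-REH (blue bar) and IL-2 (red bar) at 4 h. AP-1 has the lowest IL-2-REH median (-1.56) and the cAMP pathway the highest (0.50), and the bars lie furthest apart for the IL-2 and STAT5 targets (-0.47 and 0.82).

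The list of the T cell receptor, its coreceptors and its signalling regulators had a median of -0.60 with either cytokine. With IL-2-REH, 2 of 22 were below -1, Cd5 at 62.7 and 27.7 RPKM (-1.15) and Cd6 at 67.4 and 32.5 RPKM (-1.03), and 0 were above 1. Among 26 activation receptors, 6 were below -1 and 1 (Ifngr1) above 1, with a median of -0.33. Besides Cd69 and Cd160, these were Ctla4 (22.1 to 4.26 RPKM, -2.13), Il12rb1 (-1.72), Btla (-1.69) and Il21r (-1.27). Of 13 effector and memory transcription factors, 5 were below -1 and 0 above 1 (median -0.34), namely Eomes (22.4 to 9.29 RPKM, -1.19), Tbx21, which encodes T-bet (9.86 to 3.84 RPKM, -1.17), Nfil3 (-1.15), Irf8 (-1.13) and Id2 (-1.12). Chemotaxis and G protein signalling genes had 6 of 21 below -1 and 0 above 1 (median -0.25), with Rgs1 (-2.42), Ramp1 (-2.06) and Rgs2 (-1.80) lowest.

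The highest list median belonged to the cAMP pathway, the route by which many G protein-coupled receptors restrain T cells. In it, 2 of 11 genes were above 1 and 0 below -1, with a median of 0.50 (-0.03 with IL-2). Pde3b, a phosphodiesterase that breaks down cAMP, had 23.95 RPKM unstimulated, 61.9 with IL-2-REH at 1.5 h and 63.6 at 4 h (1.37). Crem, which encodes a cAMP-responsive factor, had 2.12, 18.5 and 5.31 RPKM in the same libraries (1.02 at 4 h), with a within-group SD of 1.26 in Tregs. Of 14 TGF-β pathway genes, 1 was below -1 (Tgfbr3, -1.40) and 0 were above 1, with a median of 0.15. Of 7 TNF superfamily ligands, Tnfsf14 (-1.74) and Tnfsf10 (-1.0003) were below -1, 0 were above 1, and the median was -0.51 (0.58 with IL-2). Neither heat shock genes (0 of 14 past 1 in either direction, median -0.22) nor redox genes (2 of 18 below -1, 0 above 1, median -0.19) stood apart.

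Markers of the labelled cell type were present in both libraries, 0 of 5 were past 1, and their median was -0.70 (-0.40 with length bins centred). Cd8a had 255.5 and 130.4 RPKM, Cd8b1 472 and 290.1, and Cd3e 259.6 and 169 in the unstimulated and IL-2-REH libraries, while Cd4 was at 1.33 and 0.571 and Foxp3 at 0.518 and 0.645 RPKM. The 5 CD8+ markers summed to 1479 RPKM unstimulated and to 907 with IL-2-REH at 4 h. Markers of other cells also summed higher in the unstimulated library. Those of macrophages and monocytes summed to 375 RPKM over 17 measured genes there and to 64.7 RPKM with IL-2-REH at 4 h (144 with IL-2 at 4 h), of which most came from Ly6c2, which CD8+ T cells also express. Of the 11 macrophage markers past the filter, 7 were below -1 and 0 above 1 (median -1.91, and -2.88 with a pseudocount of 0.1). C1qc, C1qa and Vcam1, 3 of the 55 genes below -2, went from 5.10, 3.81 and 3.91 to 0.183, 0.128 and 0.13 RPKM. Markers used for B cells summed to 93.1 and 32.3 RPKM, 14 of 15 measured were lower, and 5 of 5 past the filter were below -1 (median -1.20, and -0.23 over all 15 with no filter). Cd79b, a chain of the B cell receptor, had 8.38 and 3.42 RPKM, and Cd74, the invariant chain of MHC class II, had 21.7 and 9.92 RPKM, while Ms4a1 and Pax5 were under 0.5 RPKM in both libraries and none of the 15 was at 0 in the unstimulated one. NK cell markers summed to 90.3 and 48.4 RPKM (median -0.72, 2 of 9 below -1). They include Eomes, which is also on the list of effector and memory transcription factors. Markers of dendritic cells summed to 48.6 and 19.7 RPKM (3 of 4 below -1, median -1.22, and -0.16 with no filter). Most of this sum came from Bst2 (27.8 and 10.4 RPKM) and Ccr9 (12.6 and 4.46 RPKM), and 6 of the 10 markers were under 1 RPKM unstimulated. Bst2 is also on the list of interferon-stimulated genes, and Irf8 on that of effector and memory transcription factors. Markers of red cells and platelets summed to 20.7 and 10.9 RPKM (3 of 8 below -1, median -0.78). The medians of the NK cell markers and of the red cell and platelet markers lay near the -0.70 of the CD8+ markers. Of 2 CD4+ T cell and Treg markers past the filter, 1 was below -1 (Ctla4). Neutrophil markers were at 5.46 and 4.33 RPKM in sum (0 of 1 past 1). The part of such cells in the lower levels of macrophage and MHC class II genes, of Hmox1 (6.44 to 0.613 RPKM) and of Ly6c2 was not tested. Fewer cells of a type and less RNA per cell cannot be told apart in such bulk samples.

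The ratios also moved with exon length. In 5 equal bins of the genes by exon length, with median lengths of 975, 1857, 2687, 3727 and 5783 bases, the median log2 ratios with IL-2-REH at 4 h were -0.30, -0.10, 0.00, 0.06 and 0.17. With IL-2 at 4 h they went from -0.21 in the shortest to 0.03 in the longest bin. In the Treg pairs 1, 2 and 3 of IL-2-REH against unstimulated, they went from 0.09, -0.14 and 0.18 to -0.06, 0.02 and -0.26, so the trend had either direction. The 55 lower genes had a median exon length of 1933 bases and the 178 above 1 one of 3208, against 2687 for all genes. Once each bin was centred on its own median, which was chosen after the data had been seen, 49 genes lay below -2, 48 of them among the 55, and 10 above 2, among them the 5. Of the 55 genes, 3 are small nucleolar RNAs (Snora24, Snord16a and Snord22) that lie within exons of longer transcripts.

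Tregs, which were prepared and sequenced with 3 libraries per group, gave a comparison that shares no library with the CD8+ one. Of the 55 genes below -2 in CD8+ T cells, 8 (14.5%) were below -1 in each of the 3 same-numbered Treg pairs of IL-2-REH at 4 h and unstimulated, against 25 (0.249%) of all 10021 genes, of which these 8 make up 32%. They were Fos, Dtx1, Dusp1, Junb, Snora24, Ifng, Cst7 and D8Ertd82e (Prag1 in the annotation). Fos had log2 ratios of -3.36, -1.10 and -3.11 in Treg pairs 1, 2 and 3, Dtx1 of -1.23, -4.75 and -4.12, and Dusp1 of -2.49, -1.27 and -2.75. Below 0 in all 3 pairs were 33 of the 55 genes, against 15.7% of all genes. Unstimulated Treg replicate 1 stood apart from the other unstimulated Treg libraries, with 157 and 138 genes past 2 from replicates 2 and 3, which differed from each other in 14. Without replicate 1, 30 of the 55 genes were below -1 in both remaining pairs, against 2.75% of all genes, and without replicate 2 the number was 16 (0.709% of all genes).

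Immediate early genes varied between the Treg pairs. Fosb was at -2.75, 1.20 and -1.39 in pairs 1, 2 and 3, Nr4a1 at -2.43, 1.66 and 0.54, and Tnfaip3 at -2.11, 0.18 and -1.46. Igfbp4, which differed between the cytokines in CD8+ T cells, was at -0.71, -3.08 and -2.21. Among the 5 genes above 2 in CD8+ T cells, Adk (1.68, 2.001 and 1.61), Kcnip2 (0.85, 0.96 and 1.41) and Pgpep1l (0.39, 0.34 and 1.12) were above 0 in all 3 Treg pairs, while St8sia6 (-0.86, 0.30 and -1.09) and Heatr5a (-0.14, 0.87 and 0.23) were not. Cish was at 0.64, 0.76 and 0.73 in the Treg pairs, above its ratio of 0.27 in CD8+ T cells, a difference that was not tested.

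**Figure D5:**
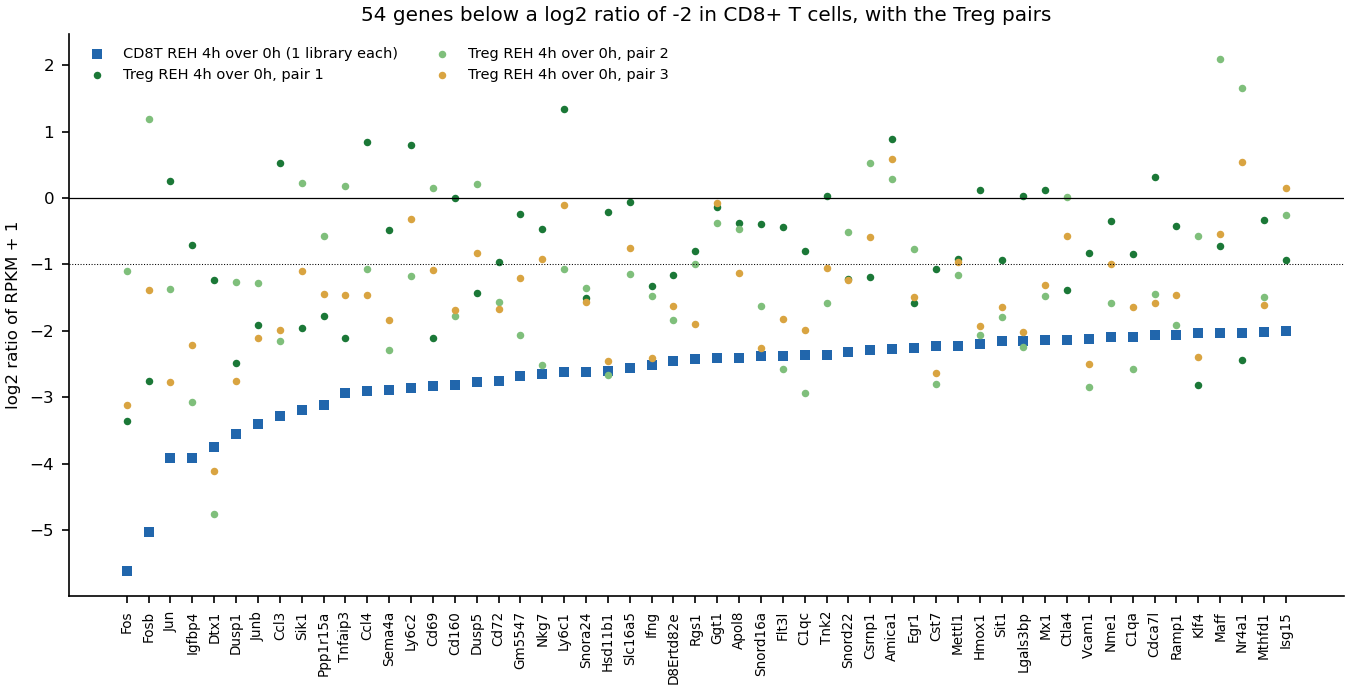
Log2 ratios of RPKM + 1, IL-2-REH at 4 h over unstimulated, for 54 of the 55 genes below -2 in CD8+ T cells (blue squares, 1 library per group), with the 3 same-numbered Treg pairs (circles). The Treg points of 8 genes all lie below the dotted line at -1, and Amica1 is the only gene with all 3 above 0.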

How the data were processed

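Each library was a single-end RNA-seq library of CD8+ T cells or Tregs. Per the labels and the methods of the study, the authors mapped reads to mm10 (GRCm38) with Bowtie2 2.2.6 and TopHat2 2.1.1, counted uniquely mapped reads over exons, and deposited raw counts and RPKM for 31682 RefSeq transcripts. The use of strand is not given in the sources used here. Here, the transcript with most reads over all 20 libraries stood for each of 23992 symbols. Log2 ratios of RPKM + 1 were taken over the 10021 genes whose RPKM averaged 1 or more across the 5 CD8+ libraries, with no test. No pair of libraries held identical counts (0 pairs). Counting intervals used the reads and the mapped reads that the RPKM imply (61428696 and 72417821). The ratio step was also run on simulated counts with large planted changes. That run covers the calculation only and does not measure the spread between CD8+ cultures.

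Named genes were taken from the 20 lowest and 10 highest ratios, the CD8+ genes the study names (Cdk6, Tnf, Lta, Bcl2, Myc, Ifng and Gzmb), and in each list the members past 1 and the 3 highest and lowest; other genes past 2, Il2rb, Il2rg, Ccr7, Tcf7, Igtp, Cd4, Foxp3, Ms4a1 and Pax5 were named with their values seen. Some genes are not reported here. The comparison and lists were chosen with earlier results of these data known. Coordinates came from RefSeq (GRCm38.p6) and exon overlaps from GENCODE M21 (GRCm38). Alternatives were a pseudocount of 0.1, a threshold of 1, other filters, centring, the longest transcript, and counts scaled with edgeR 4.0.16 or DESeq2 1.42.0 (R 4.3.3); centring by exon length and leaving out small RNAs were chosen after seeing the data. Python 3.11.15, pandas 2.3.3, scipy 1.17.1 and matplotlib 3.10.9 were used.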

Additional observations from a re-analysis of the deposited data

Results flagged for a closer look

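Of the genes named or past 2, 3 had a log2 ratio past 1 in CD8+ T cells with IL-2-REH at 4 h and the opposite sign in all 3 Treg pairs; the difference between the cell types was not tested, since CD8+ T cells have 1 library per group. Il7r was at 1.62 in CD8+ T cells and at -0.24, -0.39 and -0.80 in Treg pairs 1, 2 and 3. Myc was at -1.78 in CD8+ T cells and at 0.69, 0.74 and 0.48 in the Treg pairs. Amica1, a junctional adhesion molecule gene that the annotation names Jaml, was at -2.27 in CD8+ T cells, where it had 17.5 RPKM unstimulated, 2.82 after 4 h of IL-2-REH and 32.3 after 4 h of IL-2, and at 0.89, 0.29 and 0.58 in the Treg pairs. Its exons overlap the opposite-strand transcript Gm10684.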

How the results depend on the processing

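The number of genes below -2 (55) was 110 with a pseudocount of 0.1 and 434 at a threshold of 1, and lay between 37 and 69 under the other alternatives. The number above 2 (5) was 29 with a pseudocount of 0.1, 178 at a threshold of 1, 3 with a mean RPKM of at least 5, 18 with TMM, 17 with DESeq2 size factors and 10 with each of 5 exon length bins centred. All 55 lower and 5 higher genes were kept with the pseudocount of 0.1. TMM and DESeq2 size factors each kept 52 of the 55, losing Snora24, Snord16a and Snord22. Both used reads not divided by exon length, so these settings differ from the main one in unit as well as in scaling. The count of the 55 genes below -1 in all Treg pairs (8) ranged from 8 to 30 when a replicate was left out and was 16 with a pseudocount of 0.1. No list median or named gene past 1 changed sign under any alternative. Medians near 0 did so for the Notch pathway (0.02 with TMM), the MYC network (-0.08 with length bins centred) and sterol synthesis (0.07 with a mean RPKM of at least 5). No paired analysis was possible because each CD8+ group has 1 library. Depth limits genes with few reads, such as Ccl3 with 14 reads after IL-2-REH, and the spread between CD8+ cultures is not known.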

Other observations

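Gene families picked by symbol after the data had been seen describe the abundant end of the transcriptome. All 81 cytosolic ribosomal protein genes past the filter were lower with IL-2-REH at 4 h than in unstimulated CD8+ T cells, by a median log2 ratio of -0.43, and 0 of them were below -1, beside 52.2% of all 10021 genes that were lower. The median was -0.41 with IL-2 at 4 h and -0.17, -0.14 and 0.42 in Treg pairs 1, 2 and 3, so its sign differed between Treg pairs. Of 69 genes of the respiratory chain and ATP synthase, 68 were lower (median -0.47, against -0.20 with IL-2), as were 31 of 37 proteasome subunit genes (median -0.23, against 0.02 with IL-2). These families have short exons in total (median 703, 647 and 1344 bases), and of the other 1828 genes of the shortest exon length bin 1310 (71.7%) were lower, with a median of -0.27 with IL-2-REH, against -0.20 with IL-2. The part of exon length in these medians was not tested.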
